A study of Homo sapiens with 30 samples.

Results

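Among the 12 genes with the largest difference after induction of MEF2C in LOUCY cells stood 10 that are better known from brain, kidney, epithelium, tooth or macrophages than from lymphocytes. They are *SCG2*, *MMP20*, *AQP4*, *SLC6A13*, *SLC5A12*, *COBL*, *PSTPIP2*, *SHROOM3*, *KYNU* and *LRP11*, 10 of the 19775 genes measured. All 10 were higher with dox in every culture of the MEF2C line, but when MEF2C was induced together with intracellular NOTCH1 (ICN), only *SCG2*, *COBL*, *KYNU* and *LRP11* rose and the other 6 did not pass the test. The genes were chosen by their difference between 9 arrays with dox (+dox) and 9 without (–dox) of the MEF2C line, so their values on those 18 arrays are given as a description, without a test. Tests were made on the other 12 arrays, of the ICN line and the MEF2C and ICN line, which did not enter that contrast. Their results were known when the genes were taken up, and they entered the mean over 30 arrays by which the brightest probe set of a gene was picked.

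LOUCY is an established line of early T cell precursor acute lymphoblastic leukemia, in which a chromosomal rearrangement activates endogenous *MEF2C*, so every group expressed *MEF2C* before induction. The line named LOUCY_MEF2C-BFP holds a MEF2C construct that dox switches on. It was grown in medium, on the mouse stroma OP9-GFP, or on OP9-DL1 stroma, which displays the Notch ligand Delta-like 1. Cells with an ICN construct, and cells with MEF2C and ICN constructs, had no stroma named in their labels. Each of these 5 settings was profiled –dox and +dox with 3 arrays, which gives 10 groups and 30 Affymetrix HG U133 Plus 2.0 arrays. In the +dox groups dox induced MEF2C, ICN or both. The labels give neither dose nor duration. The study's methods state a dose for cell culture, and its legends a duration of induction for the MEF2C line. The MEF2C construct is codon optimized, lacks the β TAD domain and is driven by the TRE3G promoter. The MEF2C line is a bulk population, and no source used here states how the cells with ICN were made. An effect of ICN and an effect of the line cannot be told apart when the ICN lines are set against the MEF2C line. No source states whether the 3 arrays of a group stem from separate cultures, and the p-values cover only the scatter of these arrays, possibly of technical origin. In bulk RNA, more cells expressing a gene and more RNA per cell cannot be told apart. Arrays of untransduced LOUCY cells given dox were not analysed here.

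MEF2C is a MADS box transcription factor that works in muscle, heart, brain and blood cells, where it recruits coactivators or class IIa histone deacetylases to AT-rich sites in DNA. In blood it takes part in the myeloid and B lymphoid programs, and in early T cell leukemia it is activated abnormally. Notch signaling, which ICN mimics without ligand, drives progenitors toward the T lineage.

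Promoters of 8 of the 10 genes were matched in RefSeq (GRCh38.p14), with 10 start sites among them because *AQP4* has 3. The 100 bases before the start are shown for *KYNU* and *LRP11*, which rose when MEF2C and ICN were induced together, and for *MMP20* and *SLC6A13*, which did not pass. Letters run 5′ to 3′ on the gene's strand, and capitals mark the letters TATAAA wherever they occur. These letters form the core of a TATA box, but their distance from the start was not considered. Whether they act as such a box was not tested.
KYNU (chr2:142877564-142877663, plus strand): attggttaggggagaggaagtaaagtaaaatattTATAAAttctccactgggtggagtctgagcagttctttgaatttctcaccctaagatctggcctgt
LRP11 (chr6:149864360-149864459, minus strand): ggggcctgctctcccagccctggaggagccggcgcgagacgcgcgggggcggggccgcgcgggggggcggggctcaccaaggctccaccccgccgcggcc
MMP20 (chr11:102625333-102625432, minus strand): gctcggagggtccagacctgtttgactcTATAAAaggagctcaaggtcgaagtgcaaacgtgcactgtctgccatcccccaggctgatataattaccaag
SLC6A13 (chr12:262837-262936, minus strand): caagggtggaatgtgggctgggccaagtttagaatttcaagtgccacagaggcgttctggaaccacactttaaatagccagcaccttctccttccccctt
The promoters differ widely in base composition. G and C make up 85% of these bases in *LRP11* and 40% in *KYNU*, with *MMP20* and *SLC6A13* at 51% each. TATAAA was found, on either strand, within the 300 bases around a start of *AQP4*, *KYNU* and *MMP20*, and in 11.5% of all 35116 promoters. The consensus of MEF2 was searched as (C or T)TA, then A or T at each of the next positions, then TA(A or G), with no mismatch allowed. It was found in none of the 10 promoters, where 2.99% of all promoters hold it. A count of 0 among 10 promoters is near that share. Sites that differ from the consensus by a letter were not counted. The absence concerns these letters in this window and says nothing of binding elsewhere.

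The values are log2 expression values made by RMA, on which a difference of 1 is a factor of 2. Probe sets differ in how strongly they bind, so levels are compared between groups and not between genes. The median of an array was 4.76 to 4.84 and its 10th percentile 2.36 to 2.47. Arrays of the same group had correlations of 0.990 to 0.998 over probe sets. The 12 measured genes of a T cell leukemia list averaged 8.44 to 9.01 on an array, with *CD3D*, *GATA3* and *HHEX* above 10 throughout and *CD2* low, at 3.08 to 3.85. Over the 3 cultures of the MEF2C line 7 of these 12 fell with dox and 2 rose, where 3.79% of all genes fell and 3.4% rose. The 17 genes of a stromal list averaged 4.56 to 4.87 on the 6 medium arrays of that line and 4.55 to 4.91 on its 12 stroma arrays, and 3 of them fell with dox. The part of these shifts in the results was not tested. ICN induction raised 4 of 12 Notch response genes, where 5.37% of all genes rose. Joint induction raised 5, among them *HES1*, *HEY1* and *DTX1*, where 4.93% of all genes rose. The sizes differed between the lines. *HEY1* rose by 2.26 with joint induction and by 4.96 with ICN, *HES1* by 1.57 and 0.40, and *DTX1* by 2.78 and 2.31. *IL7R*, also among the 5, rose with dox in the MEF2C line as well, by 0.83 (adjusted p = 0.025, limma).

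*MEF2C* itself was read by the 3 probe sets to which the platform annotation used here gives this symbol alone. The probe set 207968_s_at rose by 0.79 over the 3 cultures of the MEF2C line (adjusted p = 2.2e-04, limma). In single cultures its difference was 0.53 (medium), 1.23 (OP9-GFP) and 0.63 (OP9-DL1), against 0.66 in the MEF2C and ICN line (adjusted p = 3.6e-04, limma). With ICN alone it fell by 0.48 (adjusted p = 0.0054, limma). The other probe sets, 209199_s_at and 209200_at, moved the other way. The first fell by 1.06 over the 3 cultures and fell by 2.21 in the MEF2C and ICN line, and the second fell by 1.07 and fell by 2.28. In its legends the study describes all but a single *MEF2C* probe set as lying outside the cloned cDNA and reading endogenous *MEF2C*, and the remaining one as also covering the construct, without giving their identifiers. Whether the constructs reached the same level in both lines was not tested.

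Over the 9 +dox and 9 –dox arrays of the MEF2C line, the 10 genes differed by 2.13 to 5.21. *SCG2* ranked first of 19775 genes, followed by *AQP4* with 3.73. *COBL* differed by 3.42, *PSTPIP2* by 3.11, *SLC6A13* by 3.09, *KYNU* by 2.86, *SLC5A12* by 2.84, *MMP20* by 2.27, *LRP11* by 2.21 and *SHROOM3* by 2.13. The next genes below were *GLDC* with 1.97, *NT5E* with 1.94 and *KALRN* with 1.93. *CSRP3*, a muscle LIM protein, with 3.69, and *JCHAIN*, the joining chain of immunoglobulins, with 3.35, ranked within the first 12 and are not among the 10. By the study's criteria 0.769% of all genes were higher, and 3.4% were higher at an adjusted p under 0.05, shares that are background here because the same contrast chose the genes. In each culture the 3 +dox arrays lay above the 3 –dox arrays for all 10 genes. The same lack of overlap was seen for 13.4% of all genes in medium, for 9.85% on OP9-GFP and for 12.3% on OP9-DL1. The 10 had a median difference of 3.23, 2.94 and 2.63 in these cultures, and that of all genes was -0.01, -0.03 and 0.01.

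**Figure D1:**
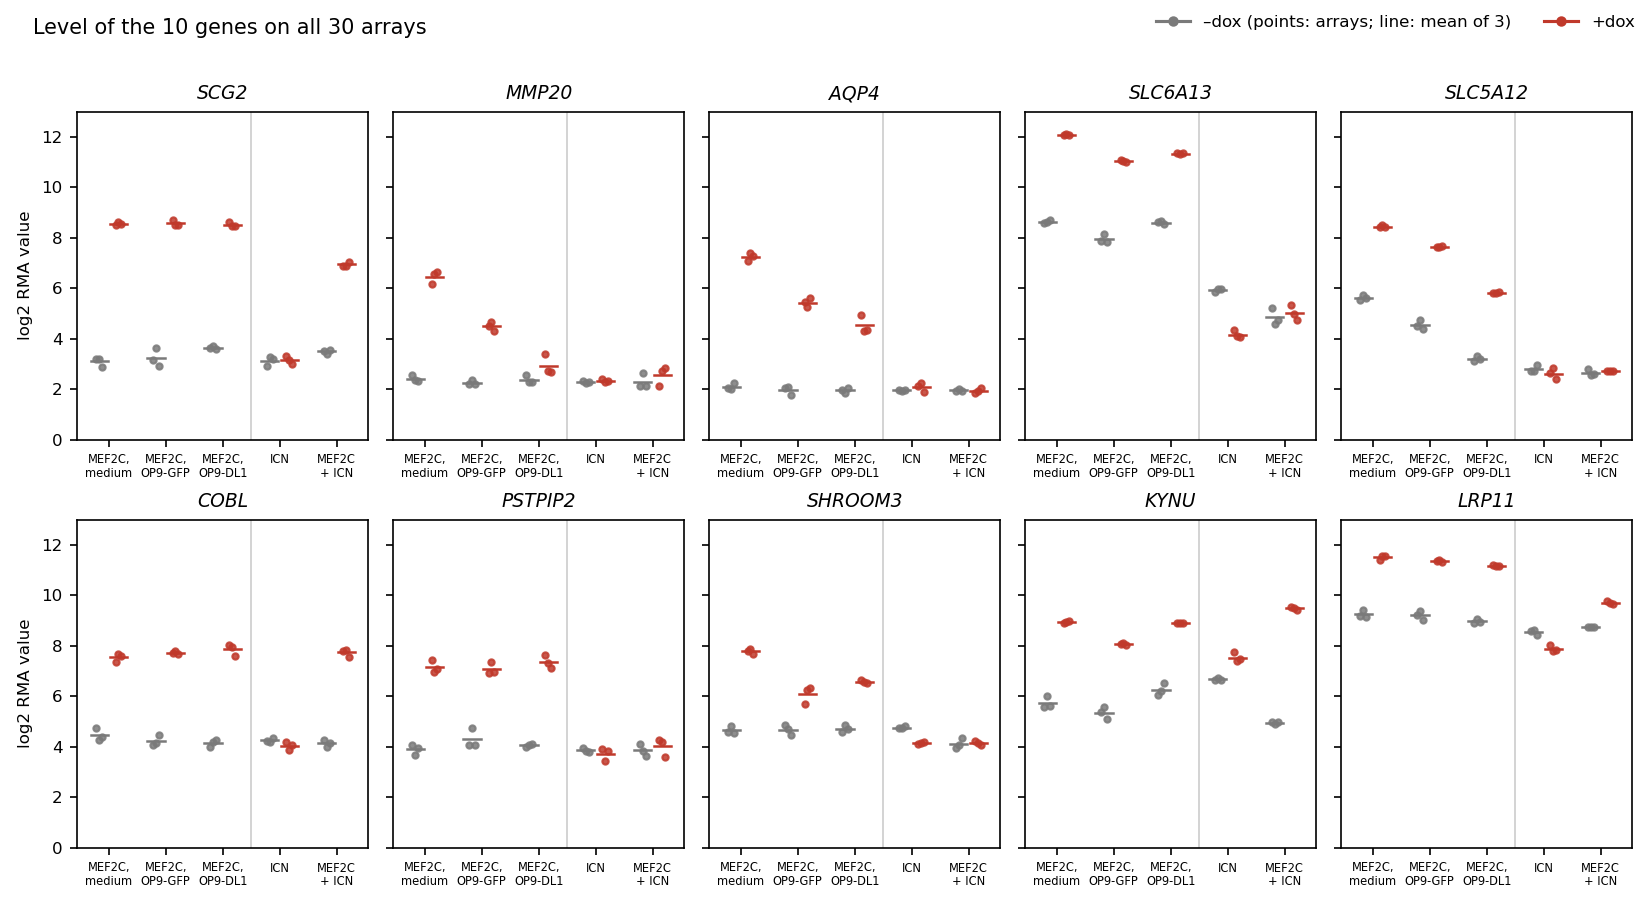
Level of each gene (log2 RMA value, vertical axis) on all 30 arrays, in gray without and in red with dox; points are arrays and lines are means of 3. All +dox points of the MEF2C line lie above the –dox points of the same culture, whereas in the MEF2C + ICN line only *SCG2*, *COBL*, *KYNU* and *LRP11* are well separated.

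*SCG2* encodes secretogranin II, an acidic protein of the dense-core secretory vesicles of neuroendocrine cells and neurons. Its –dox arrays read 3.22, 3.20 and 2.90 in medium, and the +dox arrays 8.50, 8.62 and 8.53. The +dox arrays read 8.70, 8.51 and 8.50 on OP9-GFP, and 8.63, 8.48 and 8.46 on OP9-DL1. The induced level was thus nearly the same in all 3 cultures, with means from 8.52 to 8.57 whose arrays overlap. The –dox level was 3.66 ± 0.06 (SD, n = 3) on OP9-DL1, above 3.11 ± 0.18 in medium with no overlap. In the MEF2C and ICN line the –dox arrays read 3.51, 3.42 and 3.57, and the +dox arrays 6.90, 6.90 and 7.05. That rise of 3.45 (SE 0.11, adjusted p = 9.3e-10, limma) ended below every +dox array of the MEF2C line. With ICN alone the arrays read 2.91, 3.27 and 3.21 –dox and 3.33, 3.18 and 2.99 +dox, a difference of 0.03 (95% CI -0.20 to 0.27, adjusted p = 0.90, limma).

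*MMP20* encodes enamelysin, the metalloproteinase that trims the enamel matrix of growing teeth. Its induced level depended more on the culture than that of the other 9. In medium the –dox arrays read 2.56, 2.38 and 2.33, and the +dox arrays 6.16, 6.55 and 6.64. On stroma the +dox arrays read lower, with 4.49, 4.69 and 4.30 on OP9-GFP and 3.40, 2.72 and 2.68 on OP9-DL1. The –dox arrays on OP9-DL1 read 2.55, 2.27 and 2.27, so there the groups were parted by a narrow gap and the difference was 0.57, against 4.03 in medium. Joint induction with ICN left the arrays interleaved, at 2.15, 2.63 and 2.13 –dox and 2.14, 2.71 and 2.84 +dox. The difference was 0.26 (95% CI -0.11 to 0.62, adjusted p = 0.40, limma).

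The 3 membrane transport genes had in common that none rose in the MEF2C and ICN line. *AQP4*, the water channel of astrocyte end-feet, read 2.06, 2.01 and 2.27 –dox in medium and 7.08, 7.41 and 7.28 +dox. Its +dox arrays read 5.45, 5.24 and 5.61 on OP9-GFP, and 4.95, 4.31 and 4.37 on OP9-DL1. The difference went from 5.15 in medium to 3.45 and 2.58 on stroma, with –dox means between 1.96 and 2.11. In the MEF2C and ICN line the arrays read 1.93, 2.01 and 1.94 –dox and 1.84, 1.93 and 2.04 +dox. There the difference was -0.03 (95% CI -0.22 to 0.17, adjusted p = 0.90, limma), with all 6 arrays below the 10th percentile of any array.

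*SLC6A13* encodes a sodium-dependent transporter of GABA and taurine, known from liver, kidney and meninges. In medium it read 8.59, 8.61 and 8.70 –dox and 12.05, 12.12 and 12.08 +dox, on OP9-GFP 11.04 ± 0.05 +dox (SD, n = 3), and on OP9-DL1 11.33 ± 0.02. Unlike *AQP4* it was well above the array median before induction in the MEF2C line, with –dox means of 7.94 to 8.63. The ICN line started lower, at 5.87, 5.98 and 5.97, and with dox read 4.34, 4.11 and 4.07. With ICN it fell by 1.77 (SE 0.17, adjusted p = 2.5e-05, limma) on 237058_x_at, the brighter of its probe sets. On the other, 207184_at, the difference was -0.48 and did not pass (adjusted p = 0.088, limma). In the MEF2C and ICN line the –dox arrays read 5.23, 4.59 and 4.75, and the +dox arrays 5.36, 5.0 and 4.76. These overlap, and the difference was 0.18 (95% CI -0.19 to 0.55, adjusted p = 0.57, limma).

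*SLC5A12* encodes a sodium-coupled carrier of lactate and other monocarboxylates in the kidney tubule. Its –dox level in the MEF2C line was 5.63 ± 0.11 (SD, n = 3) in medium. It was 4.55 ± 0.19 with OP9-GFP and 3.21 ± 0.10 with OP9-DL1, with no overlap between the cultures. The +dox arrays kept that order, with 8.43, 8.49 and 8.42 in medium, 7.63, 7.63 and 7.67 on OP9-GFP and 5.81, 5.83 and 5.86 on OP9-DL1. On this probe set, 1561951_at, the difference with dox was therefore similar in the 3 cultures, at 2.81, 3.09 and 2.62, on a changing base. On 214389_at it was 3.10, 3.05 and 2.66, but on 231424_at it was 2.90, 2.60 and 1.53. In the ICN lines the 12 arrays ran from 2.40 to 2.95. The difference there was 0.07 (95% CI -0.17 to 0.31, adjusted p = 0.76, limma) with both constructs, and -0.18 (95% CI -0.42 to 0.06, adjusted p = 0.37, limma) with ICN. With ICN the difference passed on 231424_at, at -0.38 (adjusted p = 0.014, limma), and not on 214389_at, at 0.10 (adjusted p = 0.83, limma).

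**Figure D2:**
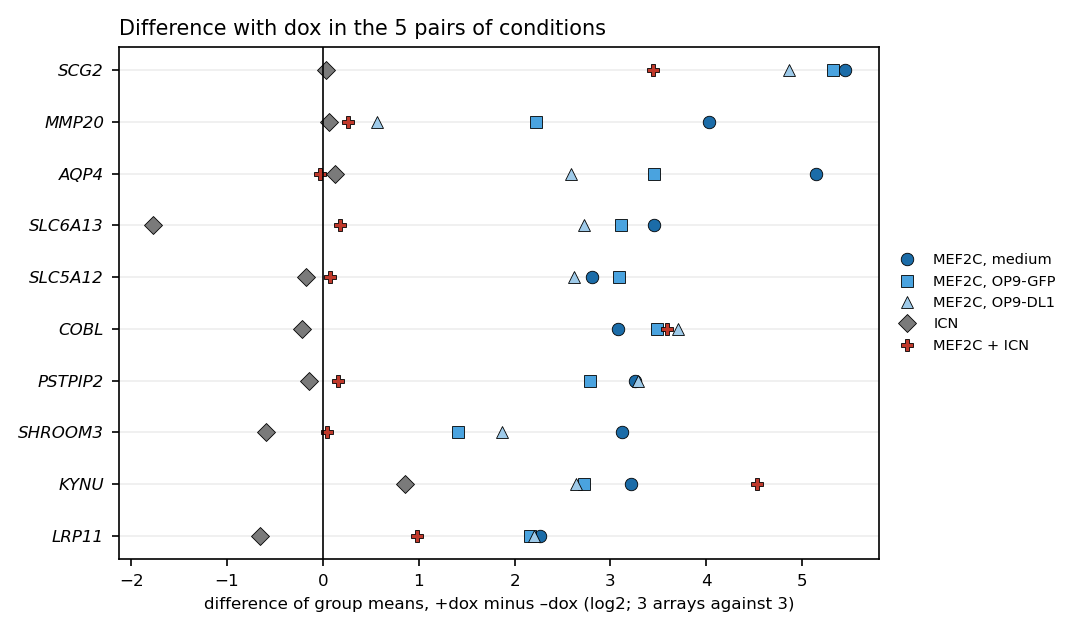
Difference of group means with dox (log2, horizontal axis; 3 arrays against 3) for each gene in the 3 cultures of the MEF2C line, the ICN line and the MEF2C + ICN line. *COBL* and *KYNU* reach 3.59 and 4.53 in the MEF2C + ICN line, whereas *AQP4*, *SLC5A12* and *PSTPIP2* lie near 0 there.

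Of the 3 genes of the actin cytoskeleton, *COBL* rose with joint induction, and *PSTPIP2* and *SHROOM3* did not pass. *COBL* encodes cordon-bleu, which nucleates unbranched actin filaments and shapes dendrites. In medium it read 4.73, 4.27 and 4.38 –dox and 7.37, 7.66 and 7.60 +dox. On OP9-GFP it read 4.08, 4.15 and 4.49 –dox and 7.72, 7.78 and 7.67 +dox. On OP9-DL1 it was 4.15 ± 0.14 –dox (SD, n = 3) and read 8.02, 7.96 and 7.59 +dox. The induced means of the 3 cultures lay close together, from 7.54 to 7.86. The MEF2C and ICN line read 4.28, 4.01 and 4.15 –dox and 7.81, 7.84 and 7.55 +dox, within the range of the induced cultures. That is a rise of 3.59 (SE 0.11, adjusted p = 6.7e-10, limma). With ICN alone the arrays read 4.25, 4.18 and 4.35 –dox and 4.19, 3.87 and 4.06 +dox, a difference of -0.22 (95% CI -0.46 to 0.01, adjusted p = 0.25, limma).

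*PSTPIP2* encodes an F-BAR adaptor that links membranes to actin in macrophages and osteoclasts. Its difference was similar in the cultures, with 3.25 in medium against 2.78 and 3.29 on OP9-GFP and OP9-DL1. In medium the arrays read 4.08, 3.68 and 3.97 –dox and 7.43, 6.97 and 7.08 +dox. The +dox arrays read 6.92, 7.37 and 6.95 on OP9-GFP and 7.63, 7.32 and 7.13 on OP9-DL1, so that the 9 induced arrays of the MEF2C line overlapped across cultures. In the MEF2C and ICN line they read 4.11, 3.83 and 3.66 –dox and 4.26, 4.21 and 3.60 +dox. The lowest of these 6 arrays was a +dox array, and the difference was 0.16 (95% CI -0.23 to 0.55, adjusted p = 0.66, limma). Similar differences over the cultures were thus seen both in genes that rose with joint induction, such as *COBL*, and in genes that did not pass.

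*SHROOM3* encodes an actin-binding protein that recruits ROCK kinases for apical constriction of epithelia. Its arrays in medium read 4.60, 4.83 and 4.55 –dox and 7.79, 7.86 and 7.68 +dox. The +dox arrays on OP9-GFP read 5.70, 6.24 and 6.33, and those on OP9-DL1 6.65, 6.56 and 6.54. The induced level was thus lowest on OP9-GFP, with –dox means of 4.66 to 4.72 in the 3 cultures. ICN alone took the gene from 4.74, 4.73 and 4.82 to 4.12, 4.16 and 4.21, and it fell by 0.60 (SE 0.09, adjusted p = 0.0012, limma). Without replicate 2 of each group that call was lost, with an adjusted p of 0.054 by limma. In the MEF2C and ICN line the –dox arrays already read 3.95, 4.05 and 4.34, and the +dox arrays 4.24, 4.14 and 4.09. The difference there was 0.04 (95% CI -0.16 to 0.24, adjusted p = 0.85, limma).

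*KYNU* encodes kynureninase, an enzyme of tryptophan breakdown on the way to NAD. It was the only gene of the 10 to rise with ICN alone, from 6.65, 6.72 and 6.66 to 7.75, 7.39 and 7.47, a rise of 0.86 (SE 0.09, adjusted p = 5.0e-05, limma). In the MEF2C and ICN line it went from 4.99, 4.89 and 4.97 to 9.54, 9.48 and 9.43. This rise of 4.53 (SE 0.09, adjusted p = 2.7e-11, limma) was the largest of the 10 there and ended at the highest level of any group. In the MEF2C line the arrays in medium read 5.57, 6.02 and 5.60 –dox and 8.89, 8.93 and 8.999 +dox. With dox the arrays on OP9-GFP read 8.06, 8.12 and 8.05, and those on OP9-DL1 8.89, 8.90 and 8.92. The lower level on OP9-GFP was matched by a lower –dox level, 5.35 ± 0.24 against 6.27 ± 0.23 on OP9-DL1, so that the differences were 2.72 and 2.64.

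*LRP11* encodes a membrane protein of the LDL receptor family. It was above the median of every array in all 10 groups, so the description as nonlymphoid refers to where these genes are best known and not to a lack of signal in LOUCY. In medium it read 9.19, 9.40 and 9.14 –dox and 11.42, 11.55 and 11.56 +dox, and its difference was 2.26, 2.16 and 2.20 in the 3 cultures. The +dox arrays read 11.37, 11.39 and 11.33 on OP9-GFP and 11.20, 11.17 and 11.17 on OP9-DL1, a narrow order without overlap. ICN alone moved it the other way, from 8.57, 8.63 and 8.44 to 8.02, 7.80 and 7.85, and it fell by 0.66 (SE 0.08, adjusted p = 1.5e-04, limma). With both constructs it went from 8.73, 8.75 and 8.73 to 9.78, 9.70 and 9.65. It rose there by 0.98 (SE 0.08, adjusted p = 2.7e-06, limma), to a level below all +dox arrays of the MEF2C line.

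On the 12 arrays of the ICN lines, joint induction of MEF2C and ICN raised 4 of the 10 genes, where 4.93% of all genes rose, and lowered none, where 9.61% fell. At an unadjusted p under 0.05 by limma these counts stayed at 4 and 0, as they did in the methods' t-test. The median difference of the 10 was 0.22, and that of all genes was 0.02. ICN alone raised 1 of the 10, *KYNU*, where 5.37% of all genes rose. It lowered *SLC6A13*, *LRP11* and *SHROOM3*, 3 of the 10, where 7.96% of all genes fell. The median with ICN was -0.16, and that of all genes was -0.03. The 4 genes that rose with joint induction comprise a vesicle protein, an actin nucleator, an enzyme and a membrane receptor. How far their rise differed from that in the MEF2C line was not tested, because the arrays of that line chose the genes.

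The effect of joint induction exceeded that of ICN alone in 6 of the 10 genes, where 2.97% of all genes had a higher and 4.93% a lower effect. None of the 10 had a lower effect, also at an unadjusted p under 0.05 by limma. The effects come from different lines, so an addition by MEF2C and a difference between the lines cannot be told apart. The difference of the effects was 3.81 for *COBL*, 3.68 for *KYNU* and 3.41 for *SCG2*, with adjusted p of 2.9e-08, 1.4e-08 and 6.8e-08. It was 1.63 for *LRP11* (SE 0.11, adjusted p = 2.0e-06, limma), whose effects ran in opposite directions. For *SLC6A13* and *SHROOM3* it was 1.95 and 0.64 (adjusted p = 3.0e-04 and 0.012, limma), and neither call held on another probe set of the gene. In these 2 genes it came with a fall under ICN alone and a joint effect that did not pass. The call for *SHROOM3* was lost without replicate 1 and without replicate 2 of each group (adjusted p = 0.14 and 0.17, limma).

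The lines also differed before induction. Without dox the MEF2C and ICN line was lower than the ICN line in 3 of the 10 genes, where 3.95% of all genes were lower, and higher in none, where 2.84% were higher. The difference was -1.73 for *KYNU* (SE 0.09, adjusted p = 2.3e-07, limma), -1.09 for *SLC6A13* (SE 0.17, adjusted p = 0.0023, limma) and -0.65 for *SHROOM3* (SE 0.09, adjusted p = 0.0012, limma). At an unadjusted p under 0.05, 2 were higher by limma, *SCG2* by 0.37 (adjusted p = 0.077) and *LRP11* by 0.19 (adjusted p = 0.23), and in the methods' t-test 0 were higher after adjustment. The call for *SLC6A13* was lost without replicate 2 or 3 of each group (adjusted p = 0.12 and 0.074, limma), and that for *SHROOM3* without replicate 2 (adjusted p = 0.086, limma). On 207184_at of *SLC6A13* the difference was -0.31 and did not pass (adjusted p = 0.37, limma). For *SHROOM3* it was -0.59 on 228400_at, which did not pass (adjusted p = 0.0504, limma). On 243653_at it ran the other way, at 0.38 (adjusted p = 0.037, limma). For *KYNU* it also passed on 210663_s_at and 204385_at, at -1.13 and -0.67, and not on 210662_at. The –dox level of *SHROOM3* in the MEF2C and ICN line, 4.12 ± 0.20 (SD, n = 3), was close to the +dox level in the ICN line, 4.16 ± 0.05. The +dox level of *KYNU* was higher with both constructs, at 9.48 ± 0.06, than with ICN, at 7.53 ± 0.19, although it had started lower.

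**Figure D3:**
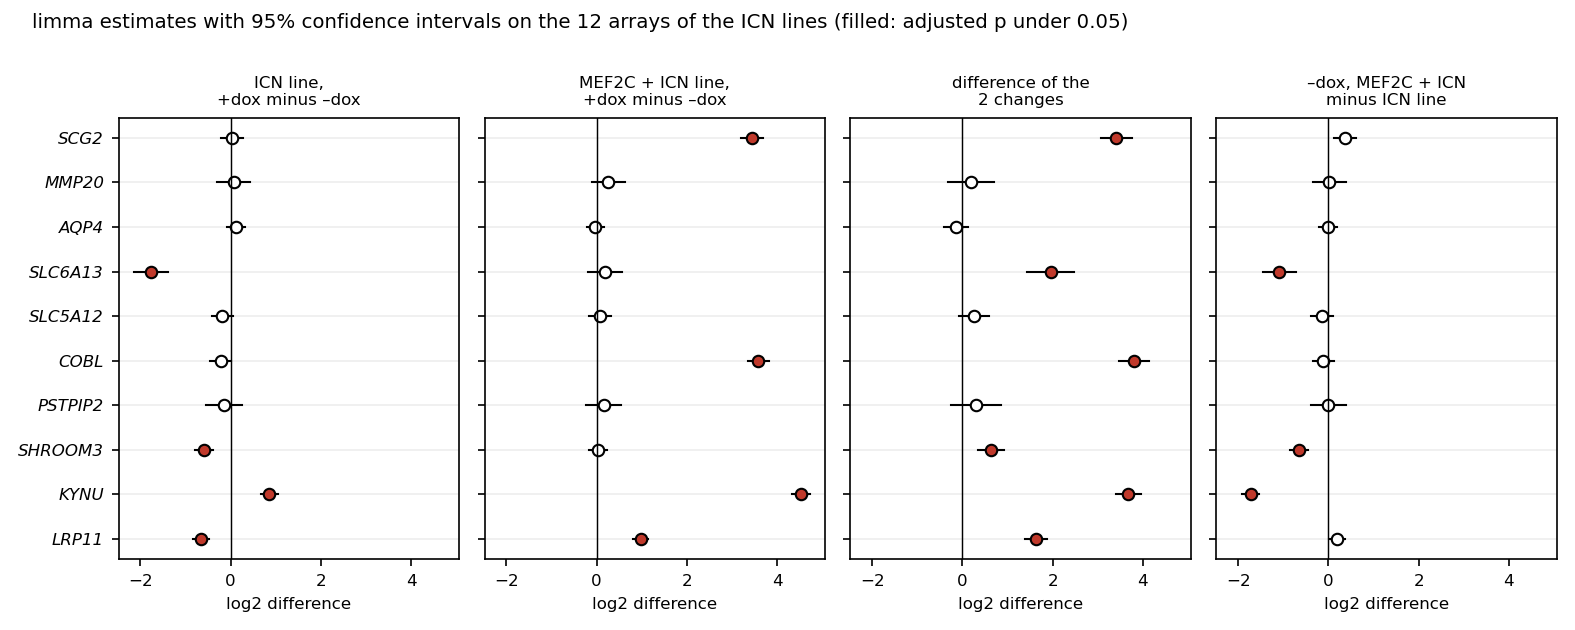
limma estimates (log2 difference, horizontal axis) with 95% confidence intervals for the 10 genes on the 12 arrays of the ICN lines; filled points have an adjusted p under 0.05. Joint induction raises *SCG2*, *COBL*, *KYNU* and *LRP11*, and the difference of the effects passes in these and in *SLC6A13* and *SHROOM3*.

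Ordered by mean level over the 10 groups, *MMP20*, *AQP4*, *SLC6A13*, *SLC5A12*, *SHROOM3* and *LRP11* were highest in the MEF2C line with dox in medium, *COBL* and *PSTPIP2* on OP9-DL1 with dox, *SCG2* on OP9-GFP with dox, and *KYNU* in the induced MEF2C and ICN line. Groups next to each other in this order often overlapped. Of the 9 neighbouring pairs of groups, 8 overlapped for *PSTPIP2*, 7 for *COBL* and for *MMP20*, 6 for *SCG2* and for *AQP4*, 5 for *SHROOM3*, 3 for *SLC5A12*, and 2 each for *SLC6A13*, *KYNU* and *LRP11*. *PSTPIP2* thus had a single gap, between the induced MEF2C line and the other groups, whereas *SLC6A13*, *KYNU* and *LRP11* differed between most groups.

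The 10 genes are read by 23 probe sets, and 6 genes have more than 1. For *COBL* both probe sets rose with joint induction, and for *KYNU* all 4, by 1.19 to 4.53. None of the 5 probe sets of *AQP4*, the 2 of *SLC6A13*, the 3 of *SLC5A12* or the 3 of *SHROOM3* rose. In the MEF2C line the probe sets of a gene differed in size of effect. Those of *SLC5A12* were higher by 2.34 to 2.94 over the 3 cultures, those of *SLC6A13* by 2.55 and 3.09, and those of *AQP4* by 0.36 to 3.73. A probe set of *SHROOM3*, 243653_at, was higher by only 0.03. With the mean of all probe sets in place of the brightest, the difference over the 3 cultures came to 1.38 for *AQP4*, 1.36 for *SHROOM3* and 1.88 for *KYNU*. The brighter probe set of *SLC6A13*, 237058_x_at, may by its suffix also bind other transcripts. On the other, 207184_at, the difference of the effects was 0.56 (adjusted p = 0.20, limma), beside the difference with ICN that did not pass. The difference of the effects for *SHROOM3* was 0.63 (adjusted p = 0.14, limma) on 228400_at. That for *SLC5A12*, which did not pass on its brightest probe set, passed on 231424_at with 0.54 (adjusted p = 0.022, limma). On 214389_at of *SLC5A12* it was 0.05 (adjusted p = 0.95, limma).

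Relatives and tissue companions of the 10 genes were examined in 15 lists, of gene families, of pathways and of markers of tissues where the 10 genes are known. Of 210 genes listed 193 were measured. Over the 3 cultures of the MEF2C line, 10 rose, 10 fell and 173 did not pass, where 3.4% of all genes rose and 3.79% fell. The median was -0.05, against -0.01 for all genes. Without replicate 1, 2 or 3 of each group, 5, 6 and 7 rose and 4, 5 and 4 fell, and with culture as a covariate 19 fell. For these settings the share of all genes is not given, and nothing is drawn from the counts. With joint induction 8 rose, 18 fell and 167 did not pass, where 4.93% of all genes rose and 9.61% fell, with a median of 0.03 against 0.02. With ICN alone 9 rose, 19 fell and 165 did not pass, where 5.37% of all genes rose and 7.96% fell, with a median of -0.04 against -0.03. In the main settings these shares are near those of all genes.

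No granin or prohormone-processing gene passed over the 3 cultures beside *SCG2* (0 of 9), and no neuroendocrine or neuronal marker (0 of 11). The same held for the SLC5 transporters (0 of 11), the markers of kidney proximal tubule (0 of 10) and those of the enamel organ (0 of 7). Over all genes 3.4% rose and 3.79% fell, so a count of 0 in lists this short is near the share of all genes. At an unadjusted p under 0.05 by limma these 5 lists held 0, 1, 3, 0 and 1 genes. At most a few members moved in the other lists. *MMP16*, a membrane-bound metalloproteinase, rose by 1.13, and *TIMP1*, a metalloproteinase inhibitor, fell by 0.52, with 23 of 25 members of that list not passing. *AQP3*, a channel for water and glycerol, rose by 0.31, and *AQP5*, a water channel of glands, fell by 0.30.

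*SLC6A12*, the betaine and GABA transporter, was the only one of 17 SLC6 relatives to rise, by 1.53 (SE 0.19, adjusted p = 1.4e-05, limma). Among 22 actin nucleators the formin *FMN1* rose by 0.65, while *WAS* fell by 0.19 and *ARPC2* fell by 0.17. In the 18 F-BAR adaptors *SRGAP1* and *FNBP1L* rose by 0.54 and 0.28, and 3 fell, among them *GAS7* by 0.36. *NMNAT3*, which makes NAD, rose by 1.03, and the other 14 of 15 kynurenine and NAD genes did not pass. In the LDL receptor family *SORL1*, a sorting receptor, fell by 0.54, and of the Shroom proteins and ROCK kinases *ROCK1* fell by 0.15. The astrocyte markers *GJA1* and *FGFR3* rose by 0.52 and 0.43, and 10 of 12 did not pass. *LYZ*, the lysozyme of myeloid cells, fell by 0.97, and *CTSK*, the osteoclast protease cathepsin K, rose by 0.38.

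With joint induction other relatives moved. The relatives named here that moved also passed with ICN alone, *NMNAT3* in the other direction. Others that moved, such as *FMN1* and *LRP10*, did not pass with ICN alone. *SLC3A1*, a subunit of the kidney's cystine transporter, rose by 3.43 (adjusted p = 2.9e-09, limma), and *SLC6A20*, a proline transporter of the SLC6 family, by 1.49 (adjusted p = 1.3e-05, limma). *LRP4*, a receptor of the LDL family, rose by 0.96, and *NMNAT3* by 0.87. *LYZ* fell by 1.61, *TIMP1* fell by 1.51 and *SORL1* fell by 1.12. *SLC6A12*, which had risen in the MEF2C line, differed by -0.01 (adjusted p = 0.97, limma). Of the 22 actin nucleators measured beside *COBL*, 6 fell, among them *SPIRE1*, which fell by 0.68, and 1 rose. Over all genes 9.61% fell and 4.93% rose with joint induction. With ICN alone *SLC3A1* rose by 4.49 (adjusted p = 9.3e-10, limma), *SLC6A20* by 0.92 and *LRP4* by 0.55, whereas *NMNAT3* fell by 0.36. *TIMP1* fell by 0.87 with ICN alone, *LYZ* fell by 0.82, *SPIRE1* fell by 0.40 and *SORL1* fell by 0.28. *SLC6A12* differed by -0.21 (adjusted p = 0.39, limma). The difference between the effects of joint induction and of ICN is not given for these relatives.

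**Figure D4:**
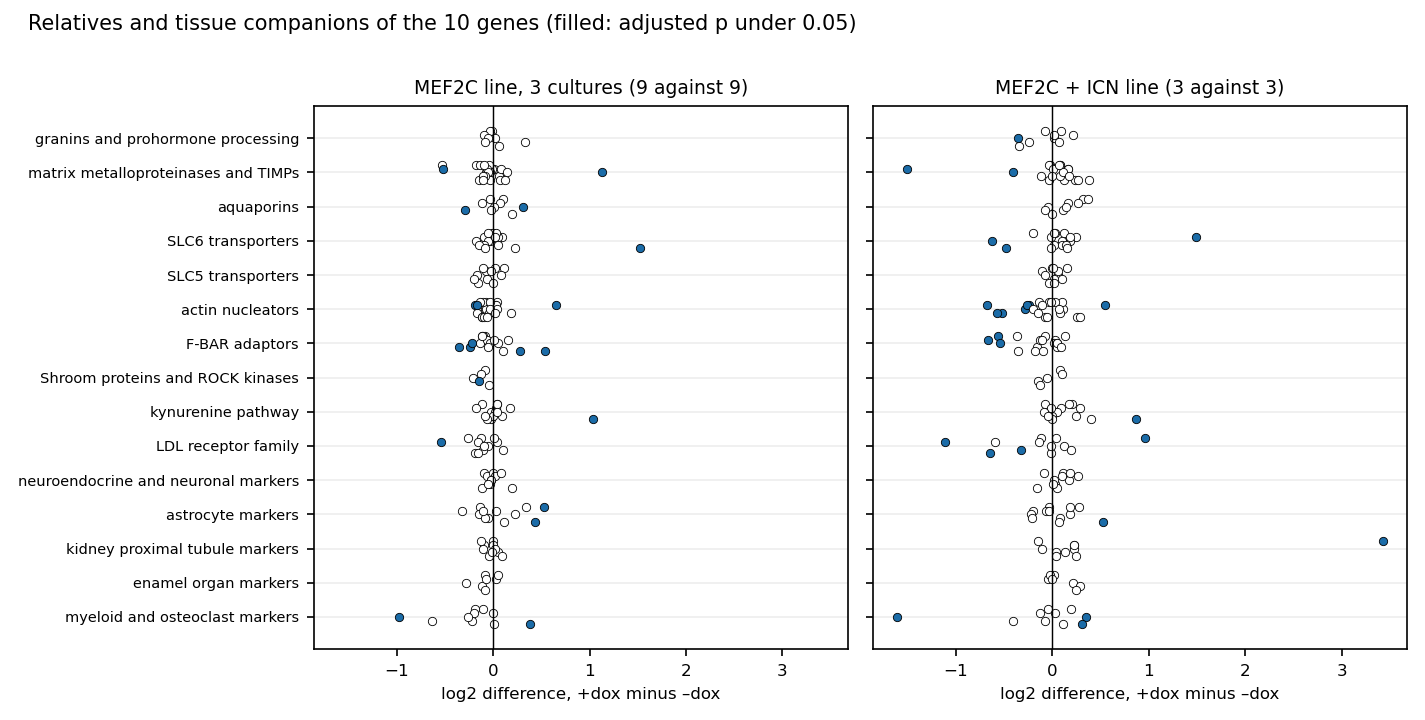
Log2 difference with dox (horizontal axis) of each measured relative or tissue marker of the 10 genes, by list, over the 3 cultures of the MEF2C line (left) and in the MEF2C + ICN line (right); filled points have an adjusted p under 0.05. Most points lie near 0, with *SLC6A12* at 1.53 on the left and *SLC3A1* at 3.43 on the right as the farthest of the rising genes. *SLC3A1* rose with ICN alone as well, by 4.49, which is not plotted.

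Genes beside the 10 in the genome were described by the 3 measured genes on either side. Of these 60 neighbours, 10 rose over the 3 cultures, where 3.4% of all genes did, 1 fell and 49 did not pass. Their median was 0.04. Without replicate 1, 2 or 3 of each group 6 rose each time, and with culture as a covariate 16 rose and 2 fell. The share of all genes under these settings is not given, so nothing is drawn from these counts. *SLC6A12*, close to *SLC6A13*, rose most. *LATS1*, a kinase of the Hippo pathway that lies near *LRP11*, rose by 1.15 (SE 0.07, adjusted p = 2.2e-10, limma), and *PCMT1*, also near *LRP11*, by 0.27. *AP1S3*, an adaptor subunit next to *SCG2*, rose by 0.98 (SE 0.20, adjusted p = 0.0043, limma), and *BBOX1*, an enzyme of carnitine synthesis near *SLC5A12*, by 0.84 (SE 0.20, adjusted p = 0.012, limma).

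The other neighbours that rose did so by 0.40 to 0.54. They were *KDM5A* beside *SLC6A13*, *ANO3* near *SLC5A12*, *SEPTIN11* near *SHROOM3*, *TMEM123* near *MMP20* and *EPG5* near *PSTPIP2*. *ULBP2*, near *LRP11*, fell by 0.53. No neighbour of *AQP4*, *COBL* or *KYNU* passed, and *AQP4-AS1*, which overlaps *AQP4*, differed by 0.05. Every neighbour that rose did so by less than the gene beside it. That follows from the choice of the genes by the largest differences in the same contrast, and nothing is drawn from it.

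**Figure D5:**
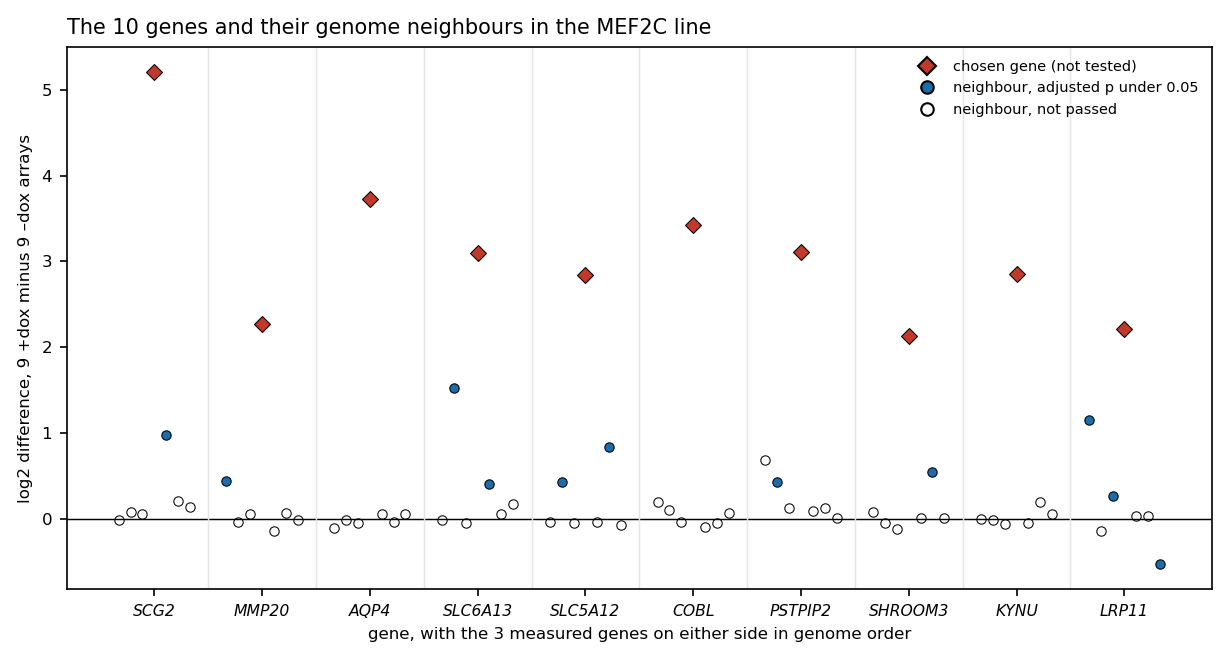
Log2 difference between 9 +dox and 9 –dox arrays of the MEF2C line (vertical axis) for the 10 genes (diamonds) and the 3 measured genes on either side in genome order (circles, filled where the adjusted p is under 0.05). *SLC6A12* at 1.53 and *LATS1* at 1.15 are the highest circles, and most lie near 0.

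The pattern over the 5 differences with dox was set against the median pattern of the 10 genes, by the root mean square of the 5 deviations in log2 units. Outside the 10 genes *CSRP3* was nearest with 0.65, then *JCHAIN* with 0.81, *KALRN* with 0.82, *GLDC*, the glycine decarboxylase, with 0.85, and *POU1F1*, a pituitary transcription factor, with 0.93. The 10 genes themselves lay from 0.21 for *SLC5A12* to 2.28 for *SCG2*, with *KYNU* at 1.98 and *COBL* at 1.60. The differences in the 3 cultures also chose the 10 genes, so nearness to their median is a description only. *CSRP3* differed by 4.37, 3.32 and 3.37 in the 3 cultures and by 0.33 with joint induction (adjusted p = 0.28, limma). *JCHAIN* differed by 2.41, 4.41 and 3.23, and by -0.01 with joint induction (adjusted p = 0.96, limma).

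After these values had been seen, the other 142 genes that were higher at the study's criteria were counted in the same way. Joint induction raised 61 of them (43.0%), lowered 18 and left 63 that did not pass, with a median of 0.21. ICN alone raised 20 and lowered 56 (39.4%), with a median of -0.22. The 10 genes, with 4 raised by joint induction and 3 lowered by ICN, are thus described by shares near those of the other genes chosen by the same contrast.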

How the data were processed

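RNA of LOUCY cells was hybridised to 30 microarrays (Affymetrix HG U133 Plus 2.0). Their 10 groups of 3 follow the sample labels. As deposited, the values are on the log2 scale and had been background corrected, quantile normalized and summarised by median polish (RMA) by the authors, with affy 1.64.0 in R 3.6.3 by the submitters' processing notes. RMA removes differences in overall brightness, and background signal shrinks the differences of dim probe sets. Arrays have no read depth, and their number limits the precision.

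Values were used as deposited. Of 54675 probe sets, 62 controls were left out. Symbols came from the platform annotation, where 41097 probe sets carry 1 symbol and 1801 several, and no gene was named from the latter. Each gene was represented by the probe set whose mean over the 30 arrays was highest. limma 3.58.1 in R 4.3.3 fitted the 4 groups of the ICN lines on their own 12 arrays, and the 9 +dox against 9 –dox arrays of the MEF2C line without covariates, as in the study's methods. Benjamini-Hochberg adjustment ran over 54613 probe sets, with an adjusted p under 0.05 as the threshold. The study's criteria for the MEF2C line were a difference over 0.6 with a p under 0.05 and an adjusted p under 0.1. Steps were tested on simulated data. Figures were drawn with matplotlib 3.10.9.

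The 10 genes, the lists and the tests were chosen with earlier results of these data known. Other genes are named where they were among the 15 largest rises, among the 3 largest changes that passed in a list, neighbours that passed, among the 5 nearest in pattern, or checks of the labels. Alternatives were median centring, quantile normalization, retained controls, a filter on dim probe sets, the mean of a gene's probe sets, all 30 arrays in 1 model, a trended and robust prior, the methods' t-test, culture as a covariate, a replicate block and leaving out replicates. Same-numbered arrays did not deviate together: over 15 pairs the correlation was -0.09 to 0.19, over 0.1 in 3, so the numbers were not taken to pair arrays.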

Additional observations from a re-analysis of the deposited data

Results flagged for a closer look

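The change with dox in the line with MEF2C and ICN differed from that in the line with ICN in 6 of the 10 genes, by the interaction term of limma on 12 arrays. It was larger by 3.81 log2 units in *COBL*, 3.68 in *KYNU*, 3.41 in *SCG2*, 1.63 in *LRP11*, 1.95 in *SLC6A13* and 0.64 in *SHROOM3*. On a second probe set of each of the last 2 genes it did not pass, with 0.56 (adjusted p = 0.20, limma) for *SLC6A13* and 0.63 (adjusted p = 0.14, limma) for *SHROOM3*. In the first 4 genes the joint change itself passed, whereas in *SLC6A13* and *SHROOM3* only the fall with ICN did. An addition by MEF2C and a difference between these lines cannot be told apart here. At the brightest probe set the –dox levels of both lines differed as well in *KYNU*, *SLC6A13* and *SHROOM3*. On 207184_at of *SLC6A13* that difference did not pass, at -0.31 (adjusted p = 0.37, limma). For *SHROOM3* it was -0.59 on 228400_at and did not pass (adjusted p = 0.0504, limma). On 243653_at of *SHROOM3* it passed in the other direction, at 0.38 (adjusted p = 0.037, limma).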

How the results depend on the processing

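No value that passed, as reported or under an alternative, changed direction. Values that did not pass changed sign in some cases, such as that of *SCG2* with ICN, which ran from -0.16 to 0.16. The 4 rises with joint induction held in 48 of 48 repeats, with adjusted p of at most 0.0018. The ICN calls held in 47 of 48, the differences of the effects in 63 of 66 and the calls between uninduced lines in 31 of 36. *SHROOM3* lost its difference of the effects with the mean of its probe sets (0.32, adjusted p = 0.093, limma). Between uninduced lines, *SLC6A13* and *SHROOM3* were lost in the methods' t-test (adjusted p = 0.097 and 0.098), which left 1 lower gene of the 10, and 1 to 3 remained lower without a replicate. *SCG2* passed as 1 higher gene with the filter on dim probe sets (adjusted p = 0.034, limma) and with the mean of probe sets (adjusted p = 0.046, limma), where fewer features were tested. The filter, a mean of 5 over all arrays, kept 6 of the 10 genes. *SCG2*, *COBL* and *SHROOM3* passed it only through arrays with MEF2C induced. In the groups without that induction their means were at most 3.66, 4.46 and 4.76. Their repeats with the filter are counted above, but nothing is drawn from them. Between the uninduced lines *SCG2* read 3.50 and 3.13, so nothing is drawn from its call there. The methods' t-test was not run on the difference of the effects.

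Counts over all probe sets moved more. Main counts of higher and lower probe sets were 2643 and 3135 for ICN, 2461 and 3912 for joint induction, 1307 and 2056 for the difference of the effects, and 1262 and 1687 between uninduced lines. The mean of a gene's probe sets, with fewer features tested, gave 1233 and 1775, 1173 and 2007, 783 and 1109, and 742 and 920. The methods' t-test gave 1014 and 1143 for ICN, and 574 and 776 between uninduced lines, and a trended and robust prior 1951 higher there. Without a replicate, with fewer samples, ICN gave 997 to 1538 higher and 1029 to 1811 lower, joint induction 1119 to 2055 and 1641 to 3179, the difference 386 to 718 and 560 to 1241, and the uninduced lines 244 to 738 and 497 to 1396. In the MEF2C line 419 probe sets were higher and 249 lower at the study's criteria, and 110 and 94 genes with the mean of probe sets. Related genes over the 3 cultures gave 5 to 7 higher and 4 to 5 lower without a replicate, and 19 lower with culture as a covariate. Genome neighbours gave 6 higher without a replicate, and 16 higher and 2 lower with that covariate. The share of all genes under these settings is not given for related genes or neighbours. The cause of the changes with culture, prior and t-test was not tested. The replicate block left the 4 joint, 1 and 3 ICN, 6 difference and 3 uninduced calls of the 10 genes in number, and gave 2495 and 2953 probe sets for ICN and 2319 and 3779 for joint induction.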
